A study of Mus musculus with 16 samples.

Results

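The integrated stress response genes described here are 10 genes of the ATF4 pathway, *Atf4*, *Atf5*, *Ddit3*, *Asns*, *Trib3*, *Chac1*, *Fgf21*, *Gdf15*, *Psat1* and *Phgdh*. They were taken by name from a list, with no measured value in the rule, but the list was chosen with earlier results of these data known. All 10 were found among the 51912 genes of the table. The table holds bulk RNA sequencing of full mouse ventricles, tissue above and below the ligature included, with 4 libraries in each of 4 groups (16 in all). LRRC10 is a leucine-rich repeat protein of cardiomyocytes. WT mice were C57BL/6J animals from a vendor, and Lrrc10-/- (KO) mice lacked *Lrrc10* in the whole body on a C57BL/6 background. Littermates are not mentioned, so the deletion and any difference in substrain cannot be told apart. At postnatal day 1 mice had a sham operation (SH) or a ligation that caused a myocardial infarction (MI), and ventricles were taken 7 days later, which gives WT SH, WT MI, KO SH and KO MI. The 4 libraries of KO MI carry the numbers 1, 2, 3 and 7. Nothing in the labels states that each library is a separate animal, so the p-values measure the spread between libraries.

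The integrated stress response slows general translation when kinases phosphorylate the initiation factor eIF2α. Under this block the mRNA of the transcription factor ATF4 is translated more, and ATF4 then switches on genes for amino acid synthesis, amino acid uptake and stress signaling. In the heart the pathway is best known from mitochondrial disease and from amino acid shortage. Much of the control of ATF4 is at translation, which mRNA counts do not measure.

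Many ATF4 targets carry a C/EBP-ATF response element, and its core was searched as the letters TGATGNAA on both strands of RefSeq promoter windows. A window holds 250 bases before a start site and 50 bases from it on. All 10 genes matched the table, with 13 windows. The table is in GRCm38.p6, and the positions below come from an exact match of each window to GRCm39, where each window was found 1 time on its chromosome. *Asns*, *Chac1*, *Fgf21* and *Trib3* held the letters (4 of 10 genes), as did 1219 of 27025 genes (4.51%) and 3.97% of 32851 windows in the whole table. The 4 matches are shown 5′ to 3′ on the strand of the gene, with the match in capitals. These 4 genes were picked by the search, so that they share the letters is not a result.
Asns: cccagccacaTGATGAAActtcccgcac
Chac1: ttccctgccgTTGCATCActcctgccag
Fgf21: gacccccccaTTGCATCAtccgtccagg
Trib3: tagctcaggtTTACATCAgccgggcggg
The *Asns* stretch lies at chr6:7693215-7693242 on the minus strand, and its match begins 23 bases before the RefSeq start. The stretches of *Chac1* (chr2:119181520-119181547, plus strand) and *Fgf21* (chr7:45265036-45265063, minus strand) hold matches that begin 193 and 139 bases before it. The *Trib3* match (chr2:152185949-152185976, minus strand) begins 14 bases after the start base, inside the transcript. In the last 3 the letters stand on the opposite strand. The windows of *Atf4*, *Atf5*, *Ddit3*, *Gdf15*, *Phgdh* and *Psat1* did not hold these letters. The 250 bases before the start of *Psat1* (chr19:15902424-15902673, minus strand) are shown because *Psat1* was called in both comparisons of KO MI, and they are in lower case throughout since they hold no match.
Psat1: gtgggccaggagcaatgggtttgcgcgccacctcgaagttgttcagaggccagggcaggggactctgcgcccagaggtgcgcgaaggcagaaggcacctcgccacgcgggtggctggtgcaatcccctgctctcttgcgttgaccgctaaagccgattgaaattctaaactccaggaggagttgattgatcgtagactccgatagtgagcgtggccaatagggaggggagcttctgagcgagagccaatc

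The libraries held 33783874 to 57470159 counts. *Lrrc10* was at 26.2 to 35.6 CPM (counts scaled to library size after TMM, a correction for the make-up of each library) in the 8 WT libraries and had 0 counts in the 8 KO libraries. Summed markers of cardiomyocytes were at 25569 to 38340 CPM in all 16 libraries, so the tissue matched its label. The labels call the groups sex-balanced, but *Xist*, an RNA of the inactive X chromosome, was at 919 to 984 CPM in 6 libraries and at most 23.4 CPM in the other 10, which include all 4 of WT SH. Each comparison with WT SH thus also sets libraries low in *Xist* against a group with both kinds. KO MI 2 and KO MI 7 stood apart by skeletal muscle markers (summed 69.3 and 113 CPM, against 1.32 to 12.6 CPM in the other 14 libraries). In a bulk library fewer cells of a type and less RNA per cell cannot be told apart.

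Few of the genes differed between groups, and in no comparison did all of them point the same way. Of the 10 genes 9 passed the filter on low counts and *Fgf21* did not. A gene was called where edgeR's quasi-likelihood test gave a Benjamini-Hochberg adjusted p under 0.1 over the 20159 genes that passed, and where its log2 fold change was 0.5 or more in size. *Psat1*, an enzyme of serine synthesis, rose in KO MI against WT MI and was the only 1 of the 9 called there, where 1.73% of all genes were called. *Psat1* and *Asns*, which makes asparagine, rose in KO MI against KO SH (2 of 9, with 7.42% of all genes called). In KO SH against WT SH edgeR called 0 of the 9 (5.01% of all genes), with 3 at an unadjusted p under 0.05 (22.8% of all genes) and 0 called by DESeq2. In WT MI against WT SH edgeR also called 0 (2.78% of all genes), with 2 at an unadjusted p under 0.05 (16.5% of all genes) and 0 by DESeq2. Each group serves in 2 of these comparisons, so their values are not independent.

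Smaller differences appear when the minimum fold is dropped. At an adjusted p under 0.1 alone, 2 of the 9 genes passed in KO SH against WT SH (12.3% of all genes) and 2 in WT MI against WT SH (5.31%). They were *Atf4* and *Atf5* each time, and both were lower. The counts in KO MI against WT MI (1, with 3.07% of all genes) and in KO MI against KO SH (2, with 17.5%) did not change. Of the 9 genes 4 were higher and 5 lower in KO SH against WT SH, 7 and 2 in KO MI against WT MI, 5 and 4 in WT MI against WT SH, and 6 and 3 in KO MI against KO SH. The median log2 fold change of the 9 genes was -0.07 in KO SH against WT SH, 0.14 in KO MI against WT MI, 0.03 in WT MI against WT SH and 0.14 in KO MI against KO SH. The medians over all genes tested were 0.01, 0.01, -0.00 and -0.01.

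**Figure D1:**
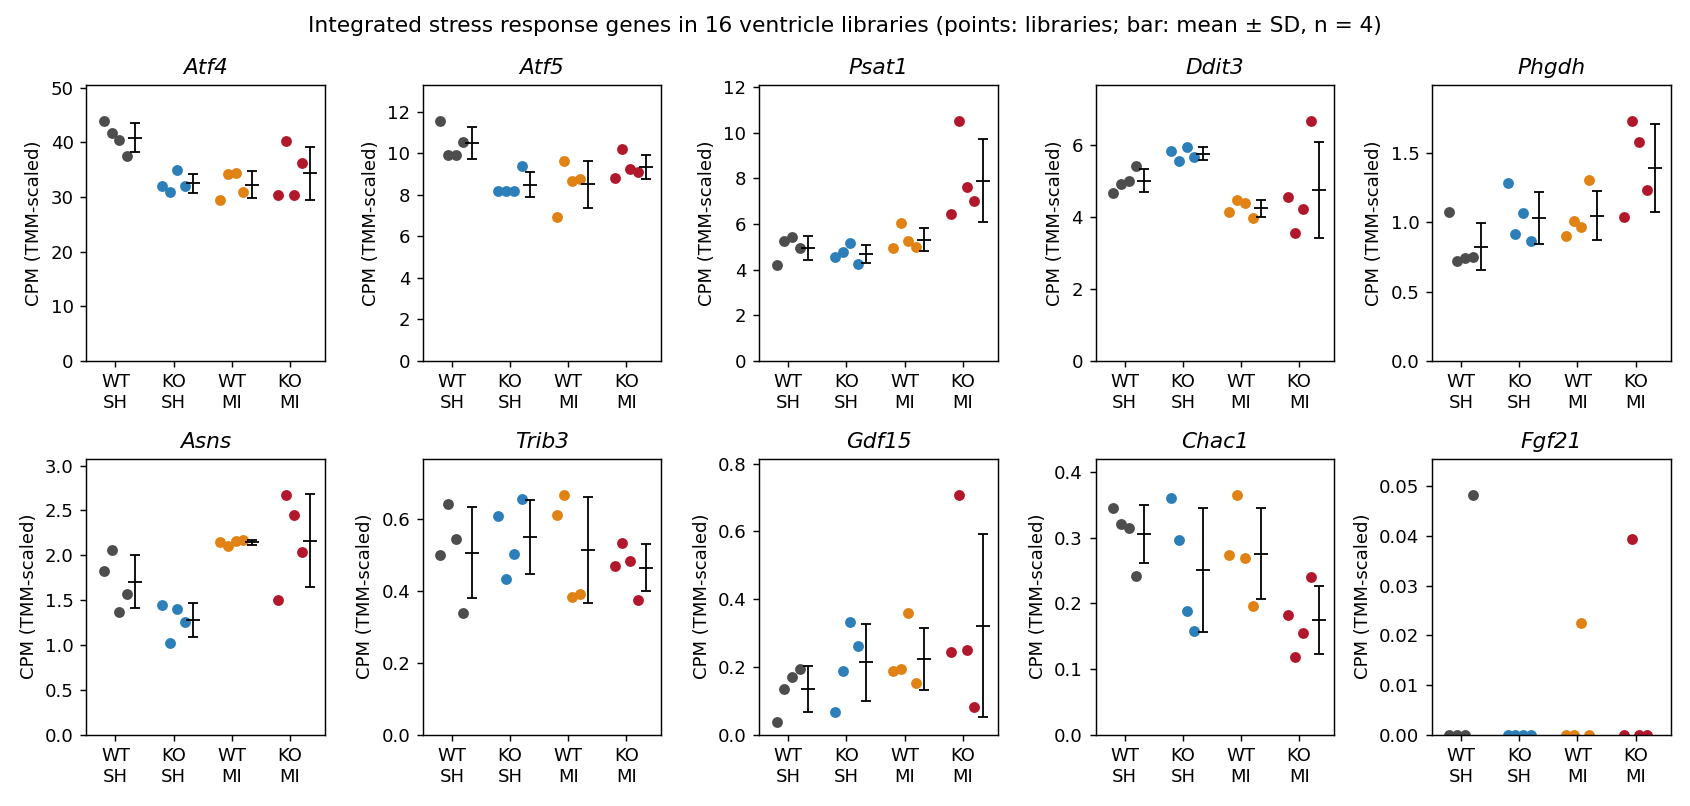
CPM (vertical axes, from 0, a scale of its own for each gene) of the 10 genes in the 4 groups; each point is 1 library, and the bar is the mean with the SD of 4 libraries (not drawn for *Fgf21*, which has 0 counts in most libraries). All 4 WT SH points of *Atf4* lie above those of KO SH and WT MI, and all 4 KO MI points of *Psat1* lie above those of every other group.

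Levels between genes were compared per kilobase of exon. *Atf4* was highest by far, at 14.7 CPM per kb over all libraries, and *Atf5* came next at 4.28 CPM per kb. *Psat1* (0.97 CPM per kb) and *Ddit3* (0.88 CPM per kb) were close to each other. Their order turned when the length of the canonical transcript was used (2.18 for *Psat1* and 5.04 for *Ddit3*). *Phgdh*, *Asns*, *Trib3*, *Gdf15* and *Chac1* followed, from 0.380 down to 0.0970 CPM per kb, and *Fgf21* was last at 0.00506 CPM per kb. The genes known as strong markers of an active response, *Trib3*, *Chac1*, *Fgf21* and *Gdf15*, were thus the 4 lowest of the list. Their counts per library ran from 0 to 36.

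Among the transcription factors, *Atf4* itself encodes the central factor of the pathway (chr15:80139372-80141745, plus strand, GRCm39). In WT SH the libraries had 43.9, 41.7, 40.4 and 37.4 CPM. KO SH libraries had 32.0, 30.9, 34.9 and 32.1 CPM, all below the lowest WT SH library. The log2 fold change of KO SH against WT SH was -0.33 ± 0.085 (SE, edgeR adjusted p = 0.0246), a ratio of 0.795. WT MI libraries had 29.5, 34.3, 34.3 and 30.8 CPM, also below all WT SH libraries, with a log2 fold change against WT SH of -0.34 ± 0.085 (edgeR adjusted p = 0.0377). Both values miss the minimum fold. KO MI libraries spread more, at 30.4, 40.2, 30.4 and 36.1 CPM, and overlapped WT MI and KO SH. Against WT MI the log2 fold change was 0.09 ± 0.085 (edgeR adjusted p = 0.763), and against KO SH it was 0.08 ± 0.085 (edgeR adjusted p = 0.618). The adjusted p of WT MI against WT SH passed 0.1 without WT SH 1 (0.117) or without WT MI 1 (0.108). That of KO SH against WT SH ran from 0.00227 to 0.0863 over its 26 alternatives.

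*Atf5*, a related factor whose translation is controlled in the same way and which is known for its part in the mitochondrial stress response, had a like pattern at a lower level (chr7:44461680-44466082, minus strand). WT SH libraries had 11.6, 9.94, 9.95 and 10.6 CPM, and KO SH libraries had 8.20, 8.18, 8.20 and 9.39 CPM, so the groups did not overlap. The log2 fold change was -0.31 ± 0.093 (edgeR adjusted p = 0.0495). WT MI libraries had 6.91, 9.66, 8.68 and 8.79 CPM, below all WT SH libraries, with a log2 fold change of -0.31 ± 0.093 (edgeR adjusted p = 0.0855). KO MI libraries had 8.84, 10.2, 9.25 and 9.12 CPM and overlapped both WT MI (0.14 ± 0.092, edgeR adjusted p = 0.624) and KO SH (0.14 ± 0.093, edgeR adjusted p = 0.366). In WT MI against WT SH the adjusted p ran from 0.0435 to 0.243 over its 26 alternatives (log2 fold changes from -0.37 to -0.22). It passed 0.1 with no filter on low counts (0.116), in a fit of only those groups (0.120), with *Xist* as a covariate (0.106) and without any 1 of 10 libraries, most of all WT SH 1 (-0.25, 0.243) and WT MI 1 (-0.22, 0.216). Leaving out WT SH 1, KO SH 1, KO SH 2 or KO SH 3 took the adjusted p of KO SH against WT SH to between 0.113 and 0.163. The *Atf5* locus overlaps *Il4i1* and *Nup62* on the opposite strand. The reads are described as strand-specific, but whether the counting used the strand is not given.

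The summed CPM of the cardiomyocyte markers moved with *Atf4*. It was 27823 to 38340 CPM in WT SH, with the highest value in WT SH 1, the library with the highest *Atf4*, and 27617 to 28496 CPM in KO SH, 26083 to 27866 CPM in WT MI and 25569 to 27910 CPM in KO MI. Across the 16 libraries log2 values of *Atf4* and this sum had a Pearson r of 0.68, given as a description over libraries that share groups. WT SH 4, with a cardiomyocyte sum of 27823 CPM inside the range of the KO SH group, had 37.4 CPM of *Atf4*, above all 4 KO SH libraries. Summed endothelial markers were at 826 to 854 CPM in WT SH and at 638 to 799 CPM in the other 12 libraries, so their sum set WT SH apart. Proliferation markers were at 425 to 518 CPM in WT SH and 350 to 398 CPM in KO SH. Summed erythroid markers were at 339 to 469 CPM in WT SH and 263 to 316 CPM in KO SH. Macrophage markers were at 55.4 to 63.4 CPM and 47.9 to 56.1 CPM. Of the single markers edgeR called 0 of 8 for cardiomyocytes, 0 of 6 for endothelial cells and 0 of 6 for proliferating cells in KO SH against WT SH. It called 2 of 8 macrophage markers lower there, and 0 of 5 for erythroid cells. The part of these cells in the differences of *Atf4* and *Atf5* was not tested. With *Xist* as a covariate the log2 fold change of *Atf4* in KO SH against WT SH was -0.34 (edgeR adjusted p = 0.0514).

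*Ddit3* encodes CHOP, a factor that promotes cell death under lasting stress of the endoplasmic reticulum (chr10:127124268-127132163, plus strand). In WT SH the libraries had 4.65, 4.92, 5.004 and 5.42 CPM, and KO SH libraries had 5.84, 5.53, 5.94 and 5.66 CPM. All KO SH libraries were above all WT SH libraries, but by a log2 fold change of 0.20 ± 0.14 (edgeR adjusted p = 0.404). WT MI libraries, at 4.12, 4.47, 4.38 and 3.97 CPM, were all below WT SH (-0.24 ± 0.14, edgeR adjusted p = 0.419). With *Xist* as a covariate the value of WT MI against WT SH was -0.12 (edgeR adjusted p = 0.769). That of KO SH against WT SH was then 0.32 (edgeR adjusted p = 0.206). KO MI libraries had 4.55, 3.54, 4.22 and 6.66 CPM, where KO MI 7 was above every other library and KO MI 2 below every other one. Against KO SH the log2 fold change was -0.29 ± 0.14 (edgeR adjusted p = 0.194), and without KO MI 7 it was -0.49 (edgeR adjusted p = 0.00198), which also misses the minimum fold. *Ddit3* lies 10.24 Mb from *Lrrc10* on the same chromosome, so sequence linked to the deletion cannot be told apart from the deletion itself. It overlaps *Mars1* and *Mbd6* on the opposite strand. *Mars1* was at 14.02 to 18.9 CPM, and its part in the *Ddit3* counts was not tested.

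The enzymes that make amino acids held every call. *Psat1* encodes phosphoserine aminotransferase, which acts after PHGDH in serine synthesis (chr19:15882039-15924701, minus strand). WT SH libraries had 4.19, 5.24, 5.40 and 4.93 CPM, and KO SH libraries had 4.55, 4.78, 5.17 and 4.22 CPM. These groups overlapped, with a log2 fold change of -0.07 ± 0.14 (edgeR adjusted p = 0.807). WT MI libraries had 4.96, 6.04, 5.24 and 4.97 CPM and overlapped WT SH (0.11 ± 0.14, edgeR adjusted p = 0.754). KO MI libraries had 6.44, 10.5, 7.61 and 6.98 CPM. Each of the 4 was above all 12 libraries of the other groups, with the highest value in KO MI 2. The mean was 7.89 ± 1.81 CPM (SD, n = 4) against 5.30 ± 0.51 CPM in WT MI and 4.68 ± 0.40 CPM in KO SH.

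*Psat1* rose by a log2 fold change of 0.57 ± 0.13 in KO MI against WT MI (edgeR adjusted p = 0.0304, 1.49-fold) and of 0.75 ± 0.13 in KO MI against KO SH (edgeR adjusted p = 0.00258, 1.68-fold). The value against KO SH kept its call in all 26 alternatives, with log2 fold changes from 0.58 to 0.84. The value against WT MI lost it in 5 alternatives. These were a fit of only those groups (0.57, edgeR adjusted p = 0.154) and the fits without WT MI 1 (0.54, edgeR adjusted p = 0.104), without WT MI 4 (0.55, edgeR adjusted p = 0.101), without KO MI 2 (0.40, edgeR adjusted p = 0.0843, under the minimum fold) and without KO MI 2 and 7 (0.40, edgeR adjusted p = 0.130). Of the 8 skeletal muscle markers 4 passed the filter, of which 3 rose in KO MI against WT MI and 4 in KO MI against KO SH, and none of the 8 was at 0 in every library. Their sum was 1.40 to 2.59 CPM in WT SH, 1.32 to 1.99 CPM in KO SH, 1.89 to 12.6 CPM in WT MI and 2.48 to 113 CPM in KO MI. Across 16 libraries log2 values of *Psat1* and of the summed skeletal muscle markers had a Pearson r of 0.79, as a description. The same r was 0.70 for proliferation, 0.66 for fibroblast, 0.64 for macrophage and 0.55 for erythroid markers. Erythroid markers were at 223 to 723 CPM in KO MI, against 263 to 316 CPM in KO SH and 292 to 416 CPM in WT MI, and 5 of 5 rose in KO MI against KO SH. KO MI 1 had 2.48 CPM of the skeletal muscle markers and *Psat1* at 6.44 CPM, and KO MI 3 had 7.01 and 7.61 CPM. The part of these cell types in the rise of *Psat1* was not tested. The pseudogene *Gm3329*, which lies inside *Psat1* on the opposite strand, had at most 0.0193 CPM.

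*Asns* encodes asparagine synthetase (chr6:7671667-7728461, minus strand). The WT SH group had 1.83, 2.06, 1.37 and 1.57 CPM, and KO SH libraries had 1.44, 1.03, 1.40 and 1.26 CPM. The groups overlapped, with a log2 fold change of -0.41 ± 0.18 (edgeR adjusted p = 0.184). WT MI libraries lay close together at 2.14, 2.11, 2.16 and 2.17 CPM and above all WT SH libraries, with a log2 fold change of 0.33 ± 0.17 that did not pass the test (edgeR adjusted p = 0.369). KO MI libraries had 1.504, 2.68, 2.45 and 2.03 CPM, and even the lowest was above the highest KO SH library. In KO MI against KO SH *Asns* rose by 0.75 ± 0.18 (edgeR adjusted p = 0.0120, 1.68-fold), and the call held in all 26 alternatives (0.61 to 0.89). KO MI and WT MI had nearly the same mean, 2.16 and 2.14 CPM, with a log2 fold change of 0.02 ± 0.17 (edgeR adjusted p = 0.987).

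Markers of fibroblasts, macrophages and proliferating cells moved with *Asns*. Summed fibroblast markers were at 2195 to 2571 CPM in WT SH and 2053 to 2257 CPM in KO SH, and at 2665 to 3113 CPM in WT MI and 2819 to 3160 CPM in KO MI. Macrophage markers were at 47.9 to 63.4 CPM in the sham libraries and 60.7 to 131 CPM in the MI libraries, and proliferation markers at 350 to 518 CPM and 512 to 708 CPM. Of the single markers 3 of 8 for fibroblasts, 7 of 8 for macrophages and 5 of 6 for proliferating cells rose in KO MI against KO SH. Log2 *Asns* had a Pearson r of 0.85 with the fibroblast sum, 0.81 with the macrophage sum and 0.83 with the proliferation sum over 16 libraries, as a description. KO MI 1 had the lowest macrophage sum of the MI libraries and also the lowest *Asns* of them. The part of these cells in the rise of *Asns* was not tested.

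*Phgdh* encodes the first enzyme of serine synthesis (chr3:98220484-98255047, minus strand). The WT SH group had 1.08, 0.722, 0.743 and 0.749 CPM, KO SH libraries 1.28, 0.918, 1.06 and 0.865 CPM, WT MI libraries 0.904, 1.01, 0.967 and 1.302 CPM, and KO MI libraries 1.04, 1.73, 1.58 and 1.23 CPM. All groups overlapped their comparators, and the highest values were in KO MI 2 and KO MI 3. The log2 fold changes were 0.32 to 0.43 in the 4 comparisons, with edgeR adjusted p values from 0.192 to 0.473. With *Xist* as a covariate they were 0.20 in KO SH against WT SH and 0.21 in WT MI against WT SH. Without KO MI 1 the value of KO MI against KO SH was 0.55 (edgeR adjusted p = 0.0889), past both thresholds. *Phgdh* and *Psat1*, which act in the same path, had log2 fold changes of 0.42 ± 0.20 and 0.57 ± 0.13 in KO MI against WT MI, of which only the latter was called.

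**Figure D2:**
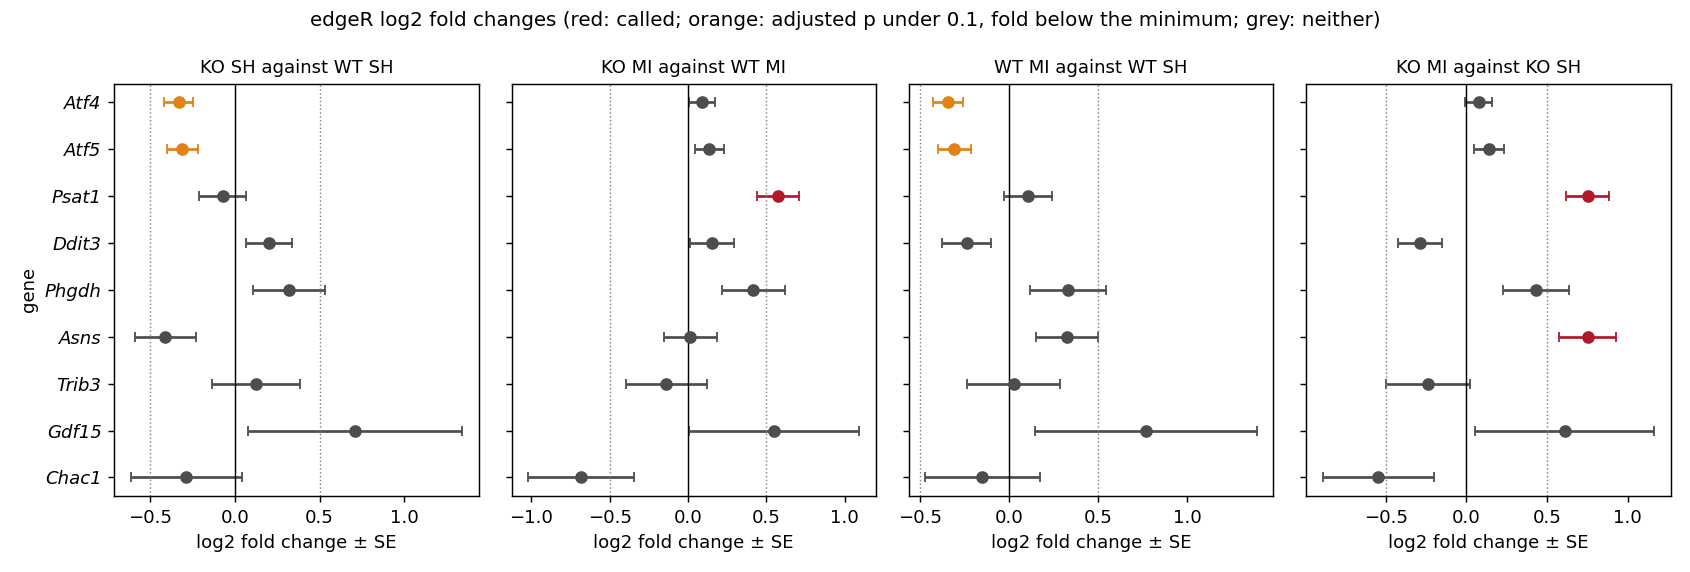
Log2 fold change (horizontal axes) with its standard error for the 9 genes that passed the filter, in the 4 comparisons; red marks a call, orange an adjusted p under 0.1 with a fold below the minimum, and dotted lines stand at -0.5 and 0.5. Red points are *Psat1* in KO MI against WT MI (0.57) and *Psat1* and *Asns* in KO MI against KO SH (0.75 each), and orange points are *Atf4* and *Atf5* in the 2 comparisons with WT SH.

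The feedback and stress genes were low. *Trib3*, a pseudokinase that restrains the pathway, was at 0.338 to 0.667 CPM (14 to 31 counts), with overlapping groups in every comparison. Its group means lay between 0.464 CPM in KO MI and 0.549 CPM in KO SH, and its log2 fold changes between -0.23 and 0.12. *Chac1* encodes an enzyme that breaks down glutathione, and it had 6 to 18 counts in a library. It was at 0.306 ± 0.045 CPM in WT SH, 0.251 ± 0.095 CPM in KO SH, 0.276 ± 0.070 CPM in WT MI and 0.174 ± 0.052 CPM in KO MI (SD, n = 4). KO MI differed from WT MI by -0.68 ± 0.34 on the log2 scale (edgeR adjusted p = 0.435), and it was negative in all 4 comparisons.

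Secreted factors of the pathway are known as signs of mitochondrial stress in blood. *Gdf15*, a cytokine, had 2 to 36 counts in a library. WT SH libraries had 0.0384, 0.134, 0.172 and 0.193 CPM, KO SH libraries 0.0676, 0.189, 0.334 and 0.262 CPM, and WT MI libraries 0.189, 0.194, 0.360 and 0.152 CPM. KO MI libraries had 0.244, 0.708, 0.250 and 0.0802 CPM, with the highest value of all libraries in KO MI 2. All log2 fold changes had an SE of at least 0.54 and none passed the test. Without KO MI 2 the value of KO MI against WT MI went from 0.55 to -0.17. *Fgf21*, a metabolic hormone, had 5 counts in all 16 libraries together, 2 in WT SH 4, 1 in WT MI 3 and 2 in KO MI 2, and 13 libraries had 0 counts. At these depths 3 counts are 0.0577 to 0.0858 CPM, so *Fgf21* was under the floor in every library. For log2(CPM + 0.05) a two-sided exact permutation test gave p = 1.0 in the 4 comparisons. In general 4 libraries against 4 can give no p under 0.0286. With 13 libraries at 0 counts no low p could be reached here, so no conclusion is drawn from this test.

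Some groups of libraries did not overlap at all. In KO SH against WT SH 3 of the 9 genes did not overlap (*Atf4*, *Atf5* and *Ddit3*), beside 18.5% of all genes tested. In WT MI against WT SH 4 did not (*Atf4*, *Atf5*, *Ddit3* and *Asns*), beside 12.1%. In KO MI against WT MI only *Psat1* did not overlap (6.48% of all genes), and in KO MI against KO SH *Psat1* and *Asns* did not (14.9%).

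The interaction compares the KO effect post-MI with that post-sham. EdgeR called 0 of the 9 genes (0.0248% of all genes were called), with 3 at an unadjusted p under 0.05 (13.6% of all genes). DESeq2 called 1 of the 9, and 289 of all 20159 genes. *Psat1* had an interaction of 0.65 ± 0.19 on the log2 scale (edgeR adjusted p = 0.192), *Atf5* of 0.45 ± 0.13 (edgeR adjusted p = 0.192) and *Atf4* of 0.42 ± 0.12 (edgeR adjusted p = 0.190). DESeq2 called *Psat1* (0.65, DESeq2 adjusted p = 0.0670), as did the edgeR fit without KO MI 7 (0.70, edgeR adjusted p = 0.0505). That edgeR fit called 840 of 19994 genes. *Atf4* and *Atf5* had KO effects of -0.33 and -0.31 after sham and of 0.09 and 0.14 after MI, and the difference between those effects did not pass in the edgeR fit. DESeq2 gave interactions of 0.43 for *Atf4* (DESeq2 adjusted p = 0.0606) and 0.45 for *Atf5* (DESeq2 adjusted p = 0.0670), both under the minimum fold. With the replicate block, in which KO MI 7 adds nothing, *Atf5* was at 0.48 (edgeR adjusted p = 0.0724), also under the minimum fold.

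The 9 genes did not vary as a unit over the libraries. Over the 36 pairs the Pearson correlation of log2 CPM across 16 libraries ran from -0.69 to 0.78 with a median of -0.02, and 17 pairs were positive. For deviations from the group means the median was 0.10, and 22 pairs were positive. These are descriptions over libraries that share groups and tissue make-up. *Trib3*, *Chac1* and *Gdf15* had at most 36 counts in a library, which limits what their pairs can show. *Atf4* and *Atf5* were the most alike (r = 0.78, and 0.52 for deviations from the group means). *Psat1* and *Phgdh* followed (0.63, and 0.41 without KO MI 2), then *Asns* and *Psat1* (0.59). *Atf4* was not close to the enzymes it is known to control, with r = 0.15 for *Asns*, 0.08 for *Psat1* and -0.20 for *Phgdh*. For deviations from the group means these were 0.50, 0.55 and 0.38. *Ddit3* ran against *Asns* (-0.67).

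Among 14116 genes with a mean of at least 1 CPM, those most like *Atf4* over the 16 libraries included *Myo18b* (r = 0.90), which encodes a protein of the sarcomere, and *Arih2* (0.88). The nearest to *Asns* were *Loxl1* (0.91), a crosslinker of elastin, *Myo5a* (0.91) and *Sema3d* (0.90). The nearest to *Phgdh* were *H2bc18* (0.84), *Snx4* (0.83) and *Mcph1* (0.83), and to *Gdf15* *Nlrc3* (0.84), *9430015G10Rik* (0.82) and *Snai2* (0.82).

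**Figure D3:**
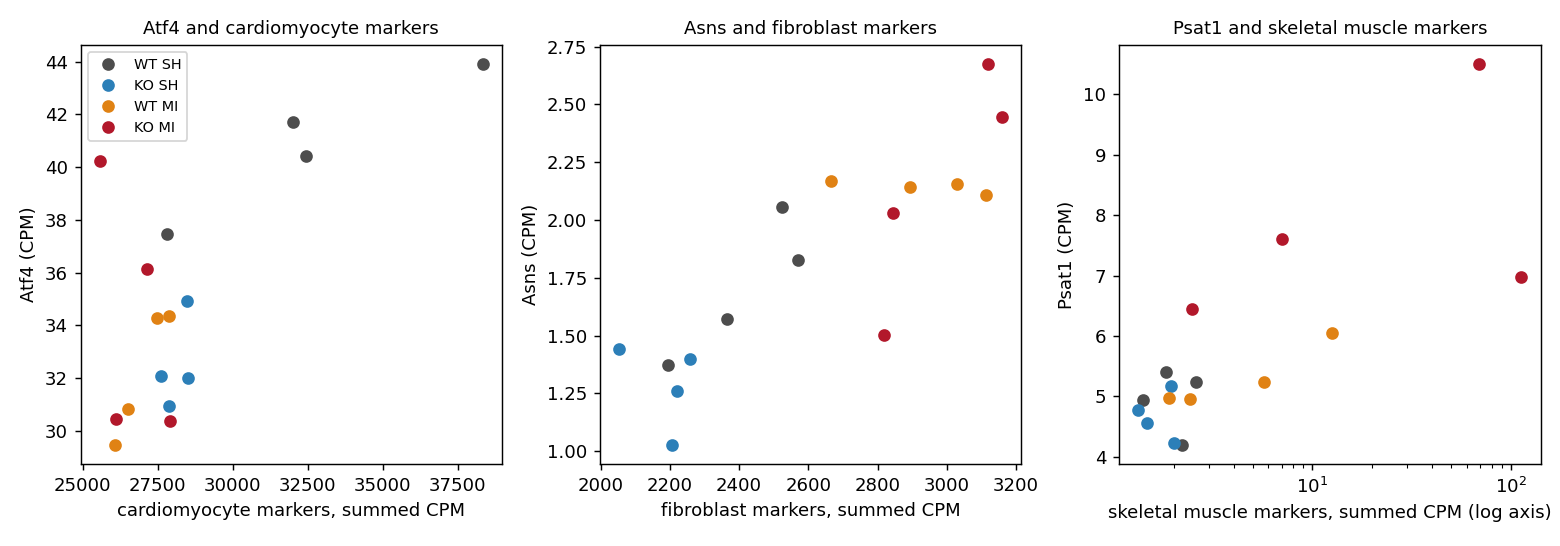
*Atf4*, *Asns* and *Psat1* (CPM, vertical axes, which do not start at 0) against the summed CPM of markers of cardiomyocytes, fibroblasts and skeletal muscle (horizontal axes, the last on a log scale); each point is 1 of 16 libraries, colored by group. The WT SH point at 38340 CPM of cardiomyocyte markers has the highest *Atf4*, and KO MI points with 2.48 and 7.01 CPM of skeletal muscle markers have *Psat1* at 6.44 and 7.61 CPM.

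The other genes of the pathway were described by 7 lists with 88 genes, of which 86 were tested (*Cth* and *Slc7a3* did not pass the filter). In KO SH against WT SH 1 of the 86 rose and 1 fell. *Sesn2*, a leucine sensor that restrains mTORC1, rose by 0.59 ± 0.14 (edgeR adjusted p = 0.0168), from 1.67 ± 0.10 to 2.51 ± 0.22 CPM (SD, n = 4). *Slc7a1*, a carrier of arginine and lysine, fell by 0.56 on the log2 scale (edgeR adjusted p = 0.00044), from 55.6 ± 6.1 to 37.8 ± 2.9 CPM, and without WT SH 1 its change was -0.48, under the minimum fold. In KO MI against WT MI only *Slc1a5*, a carrier of glutamine, was called. It was at 6.15 ± 1.13 CPM in WT MI and 4.21 ± 0.44 CPM in KO MI and fell by 0.55 (edgeR adjusted p = 0.0568). It lost the call without WT MI 1, WT MI 4, KO MI 1 or KO MI 3 (edgeR adjusted p from 0.115 to 0.213), in a fit of only those groups (0.147) and with the replicate number as a block (-0.49, 0.139).

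*Slc7a11*, the cystine carrier that feeds glutathione synthesis, was the 1 gene of the lists called in WT MI against WT SH. It was at 0.0286 to 0.193 CPM in WT SH and at 1.303, 4.24, 2.85 and 2.45 CPM in WT MI, and rose by 4.77 ± 0.73 (edgeR adjusted p = 0.0020). KO SH libraries had 0.0451 to 0.131 CPM. KO MI libraries had 0.122, 1.99, 2.47 and 3.10 CPM, a rise of 4.28 ± 0.74 against KO SH (edgeR adjusted p = 0.00219). KO MI 1 was thus at the level of the sham libraries while the other 3 KO MI libraries were far above it.

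In KO MI against KO SH 6 of the 86 genes were called higher and 2 lower, beside 7.42% of all genes called, so the share was near that of all genes. The mitochondrial folate enzymes *Mthfd2* (2.40 ± 0.43 to 4.402 ± 1.28 CPM) and *Mthfd1l* (1.75 ± 0.39 to 3.01 ± 0.71 CPM) rose by 0.88 ± 0.21 (edgeR adjusted p = 0.0118) and 0.78 ± 0.18 (edgeR adjusted p = 0.0116). *Aldh1l2*, which also acts on mitochondrial folate, fell by 0.66 (edgeR adjusted p = 0.0227), and the alanine transaminase *Gpt2* fell by 0.53 (edgeR adjusted p = 0.0337). The lowest value of both was in KO MI 2, at 15.4 and 5.18 CPM. The neutral amino acid carriers *Slc7a5* (0.90 ± 0.22, edgeR adjusted p = 0.0165) and *Slc1a4* (0.60 ± 0.17, edgeR adjusted p = 0.0348) rose, with their highest values, 10.4 and 3.29 CPM, in KO MI 2. Without KO MI 2 their values were 0.499 and 0.39, neither of which was called, and that of *Aldh1l2* was -0.44, under the minimum fold. *Slc1a4* also lost its call without KO SH 4 (edgeR adjusted p = 0.103) and in a fit of only those groups (0.116). *Gpt2* went under the minimum fold without KO MI 2 (-0.37), KO MI 7 (-0.49), KO SH 2 (-0.48) or KO SH 4 (-0.49) and with the replicate block (-0.46), and had an adjusted p of 0.109 in a fit of only those groups. Without KO MI 2 and 7 *Gpt2* was at -0.25 (edgeR adjusted p = 0.180), and *Mthfd1l* was at 0.47 (edgeR adjusted p = 0.135). *Nupr1*, a stress-induced chromatin protein, rose by 1.16 ± 0.24 (edgeR adjusted p = 0.00648), from 0.454 ± 0.083 to 1.02 ± 0.29 CPM.

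The remaining lists held small values. Over all genes 22.8% were at an unadjusted p under 0.05 in KO SH against WT SH, 12.4% in KO MI against WT MI, 16.5% in WT MI against WT SH and 26.2% in KO MI against KO SH, and 12.3% were at an adjusted p under 0.1 in the first of these. Of the 14 genes for the eIF2α kinases, eIF2B and their regulators, edgeR and DESeq2 called 0 in each comparison, with 1 to 5 at an unadjusted p under 0.05 and medians from -0.06 to 0.08. Of the 20 cytosolic tRNA synthetases, many of them known ATF4 targets, both tools also called 0. Their median log2 fold change was -0.17 in KO SH against WT SH, with 19 of 20 below 0 and 12 at an unadjusted p under 0.05 (5 lower at an adjusted p under 0.1, no minimum fold). It was 0.03 in KO MI against WT MI, -0.08 in WT MI against WT SH and 0.16 in KO MI against KO SH. Of the 15 chaperones of the endoplasmic reticulum, controlled by XBP1 and ATF6, both tools called 0, with 2 to 5 at an unadjusted p under 0.05 and medians from -0.02 to 0.15. Of the 10 mitochondrial chaperones and proteases both tools called 0, with 1 to 5 at an unadjusted p under 0.05. Their median was -0.18 in KO SH against WT SH, with 4 lower at an adjusted p under 0.1, and from -0.11 to 0.03 in the other comparisons.

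**Figure D4:**
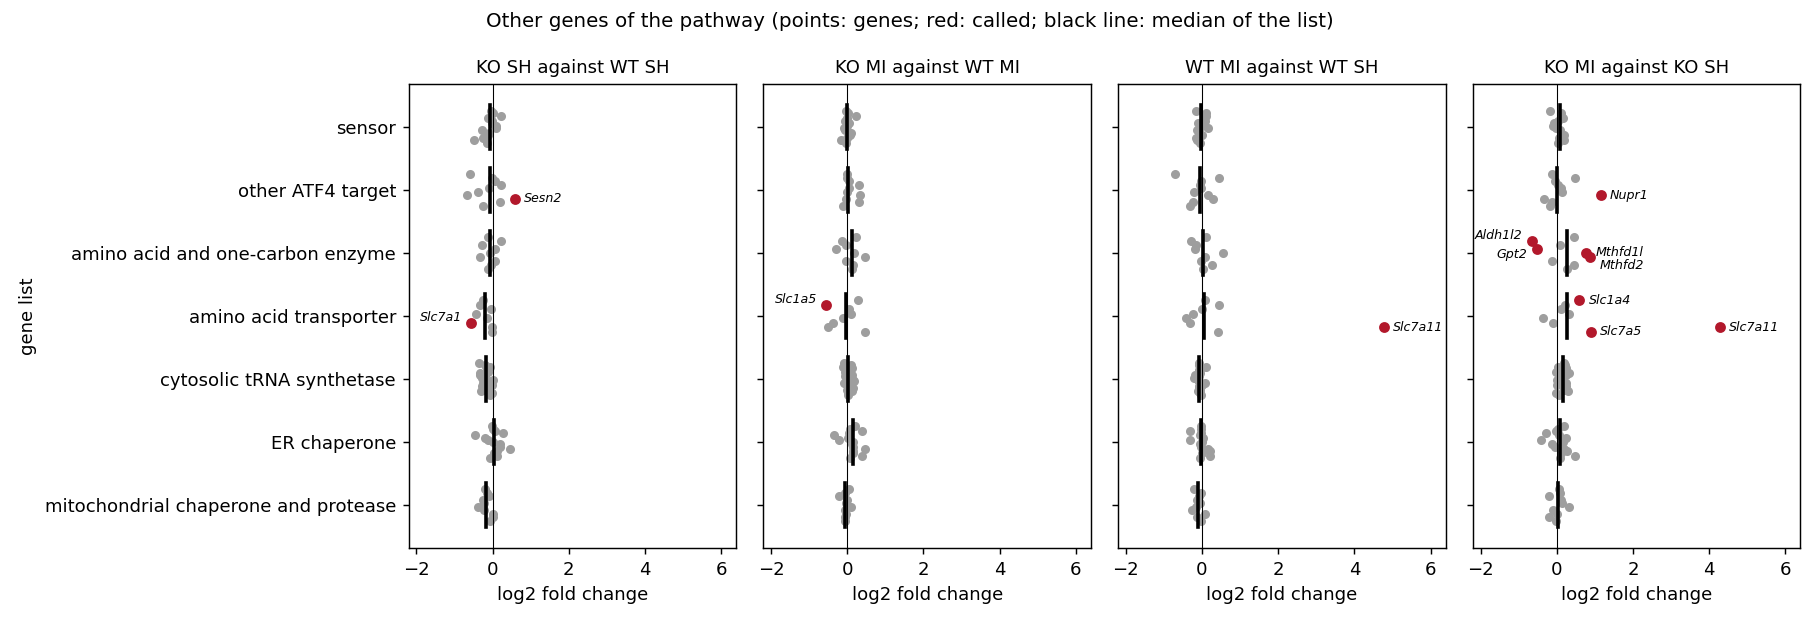
Log2 fold change (horizontal axes) of each tested gene of the 7 lists in the 4 comparisons; grey points are genes that were not called, red points with names are called genes, and the black line is the median of a list. *Slc7a11* stands at 4.77 and 4.28 in the MI against sham comparisons, and the tRNA synthetases have a median of -0.17 in KO SH against WT SH.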

How the data were processed

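The authors deposited 1 table of expected counts from RSEM for 16 ventricle libraries on GRCm39, not normalized and given as whole numbers. Their methods name Skewer, STAR and RSEM, whereas the submitters' processing notes list cutadapt (version 3.4), HISAT2 (version 2.2.1) and RSEM (version 1.1.17), and the annotation release is not given in the sources used here. Genes were named from GENCODE release M39 (47772 of 51912 identifiers matched). RSEM shares reads between overlapping or similar genes, so such counts are uncertain. A gene was tested where every one of the 4 groups summed to 10 counts or more, with edgeR (version 4.0.16, quasi-likelihood F-test, two-sided, TMM, 1 coefficient per group, all 16 libraries). DESeq2 (version 1.42.0), other scalings, filters, covariates and left-out libraries were alternatives. The fit was tested on simulated data. Named genes were the 10 members, the called genes of the pathway lists (at most 4 per list and comparison) and, for 4 members, the 3 most correlated genes (log2 CPM with a prior count of 2), of which 1 is not reported here. The members and lists were chosen with earlier results of these data known. Sequences are from RefSeq windows (GRCm38.p6). Intervals for depth cover counting error only.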

Additional observations from a re-analysis of the deposited data

Results flagged for a closer look

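A gap test within groups of 4 libraries (39 groups) singled out 5 values, and chance alone gives about 1 in 20. *Atf5* was at 9.39 CPM in KO SH 4, with the other KO SH libraries between 8.18 and 8.20 CPM. *Phgdh* was at 1.08 CPM in WT SH 1, with the others of its group between 0.722 and 0.749 CPM. The other 3 were *Fgf21* values that rest on 1 or 2 counts beside libraries at 0 counts, 0.0483 CPM in WT SH 4, 0.0225 CPM in WT MI 3 and 0.0394 CPM in KO MI 2. In such a group the rule singles out any count above 0, so these 3 cannot be set against the chance share. *Ddit3* in KO MI 7 (6.66 CPM) was not among the 5 values.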

How the results depend on the processing

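Of 1161 values of single members under the alternatives, 1122 kept their direction and their side of the thresholds, 26 changed sign, 5 were no longer called and 8 were newly called. Alternatives with other thresholds keep the main estimates, and some fits leave out a library outside the comparison. The number that kept is thus not a measure of how firm the values are. The number of members called was 2 in KO SH against WT SH and 2 in WT MI against WT SH with no minimum fold. In KO MI against WT MI it was 0 in a fit of only those groups (192 of 20159 genes called). It was also 0 without KO MI 2 and 7 (293 of 19543), and from 0 to 1 when each library was left out (227 to 575 of all genes). For the interaction it was 1 with DESeq2 (289 of 20159 genes) and 1 with the replicate block (689 of 20159). It was from 0 to 1 when each library was left out (2 to 840 of all genes). The main fit called 348 genes in KO MI against WT MI and 5 for the interaction. Some values changed sign. Without KO MI 2 and 7 they were *Atf4* at -0.0918 in KO MI against WT MI and -0.105 against KO SH, *Asns* at -0.124 in KO MI against WT MI and the *Phgdh* interaction at -0.00967. With the replicate block they were *Ddit3* at -0.0475 in KO MI against WT MI and the *Gdf15* interaction at 0.183, and with *Xist* as a covariate *Trib3* at -0.00175 in WT MI against WT SH. With each library left out, *Atf4* ran from -0.0105 to 0.13 in KO MI against KO SH, *Ddit3* from -0.0467 to 0.27 in KO MI against WT MI and from -0.249 to 0.0676 in the interaction, and *Asns* from -0.10 to 0.16 in KO MI against WT MI. *Trib3* ran from -0.0234 to 0.257 in KO SH against WT SH, from -0.251 to 0.0152 in KO MI against WT MI and from -0.13 to 0.16 in WT MI against WT SH. *Gdf15* ran from -0.17 to 0.87 in KO MI against WT MI, from -0.12 to 0.94 in KO MI against KO SH and from -0.88 to 0.20 in the interaction, and the *Phgdh* interaction from -0.0711 to 0.22. The cause was not tested.

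Deviations of same-numbered libraries had r from -0.21 to 0.22 over 21 pairs (median 0.03, 6 above 0.1). Those of libraries with unlike numbers had r from -0.21 to 0.22 over 75 pairs (median -0.01, 13 above 0.1). The numbers were not taken as a pairing. The block gave the *Psat1* interaction as 0.65 (edgeR adjusted p = 0.0390) and changed no other call of a member. Of the 86 other pathway genes tested 2, 1, 1 and 8 were called in KO SH against WT SH, KO MI against WT MI, WT MI against WT SH and KO MI against KO SH, and 19, 5, 6 and 23 with no minimum fold. Over all genes the shares were 5.01%, 1.73%, 2.78% and 7.42% called, and 12.3%, 3.07%, 5.31% and 17.5% with no minimum fold. The 19 were 4 higher and 15 lower, and the 23 were 16 higher and 7 lower. The other alternatives called 1 to 4, 0 to 3, 1 to 3 and 4 to 10 of the pathway genes, and for the interaction 0 to 5 in place of 0. Over all genes they called 2 to 840 for the interaction, in place of 5. *Trib3*, *Chac1* and *Gdf15* had at most 36 counts in a library, which limits what these depths can show for them.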
